A study of Mus musculus with 22 samples.

Results

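Activin A gastruloids made from wild-type and from Hox-/- mouse embryonic stem (mES) cells were compared at 96 h of culture, across all genes outside the 39 Hox genes and chromosome Y. A gastruloid is an aggregate of stem cells that forms some of the cell types and the head-to-tail axis of an early embryo in a dish. The comparison rests on 4 of the 22 RNA-seq libraries of the series, 2 per genotype, all labelled Activin A gastruloids of mixed cells. The wild-type group carried no change that the labels name, and the Hox-/- group carried a genotype described as lacking all Hox function and tagged BADC in the library names. Both groups came from mES cells kept with LIF, a GSK-3 inhibitor (CHIR99021) and a MEK inhibitor (PD0325901), and both received Activin A; the dose in gastruloids is not given in the sources used here. The number of clones per genotype and whether the replicates were separate cultures are not given in the sources used here. Genotype and cell line therefore cannot be told apart. The p-values measure the spread between replicate libraries, estimated over the 8 Activin A libraries at 96 h and 120 h that were fitted together.

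Activin A is a ligand of the TGF-beta family that binds the same receptors as Nodal and activates Smad2 and Smad3. In the gastrulating mouse embryo, strong Nodal and Activin signalling at the front of the primitive streak gives rise to definitive endoderm (the future gut lining), prechordal plate and notochord, and these tissues secrete Cer1, Lefty, Dkk1, Chrd and Shh, which pattern the head and the midline. The back of the streak and the tail bud hold caudal progenitors that express T, Cdx and Wnt3a and supply the trunk, and Hox genes come on in these cells in the order of their position along each cluster.

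Total counts were 22.5 and 25.8 M (mega) in the wild-type libraries and 21.4 and 15 M in the Hox-/- libraries. The 39 targeted Hox genes summed to 660.5 and 624.8 CPM (counts scaled to a common library total) in wild type and to 102.4 and 103.8 CPM in Hox-/-, 16.04% of the wild-type mean. The genotypes did not overlap, and a two-sided exact permutation test gave p = 0.333, the smallest that 2 against 2 libraries allow. Genes on chromosome Y, left out of what follows, summed to 353.1 and 364.1 CPM in wild type and to 75.1 and 66.1 CPM in Hox-/-. Mitochondrially encoded genes took 0.939% and 0.968% of counts in wild type and 0.946% and 0.769% in Hox-/-. As a check of the labelled cell mixture, defining markers of primitive streak were abundant in every library (2427, 2367, 2392 and 2349 CPM summed over T, Eomes, Mixl1, Gsc and Lhx1), while those of visceral endoderm (0.602 to 1.47 CPM), trophoblast (0.0468 to 0.659 CPM), the heart (0.401 to 1.55 CPM) and 2-cell-like cells (0.0669 to 0.0935 CPM) were near 0. In bulk RNA, fewer cells of a type and less RNA per cell cannot be told apart.

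Genes that were strongly changed were mostly lower in Hox-/- gastruloids. They included the head and midline organizer genes Cer1, Lhx1, Otx2 and Gsc, the endoderm transcription factors Sox17, Foxa2 and Gata6, and the imprinted growth inhibitor Grb10. The genes that rose were led by Grsf1, Gbx2 and Cdx1 and by interferon-response genes such as Iigp1, Oasl2 and Isg15, at 2.54- to 4.36-fold. Of 16791 genes tested with edgeR's quasi-likelihood test, 6513 (38.8%) were called at an adjusted p under 0.05. Of these, 3727 (22.2% of all tested) were higher and 2786 (16.6%) lower. Most calls were small, since 66.7% of them lay under 1.5-fold. At a fold change of at least 2, 1073 genes (6.39%) were called, 288 higher (1.72%) and 785 lower (4.68%). At 4-fold or more the split was 23 against 274, and at 8-fold or more it was 6 against 127, counts that hold genes at the floor, whose fitted folds are not bounds.

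**Figure D1:**
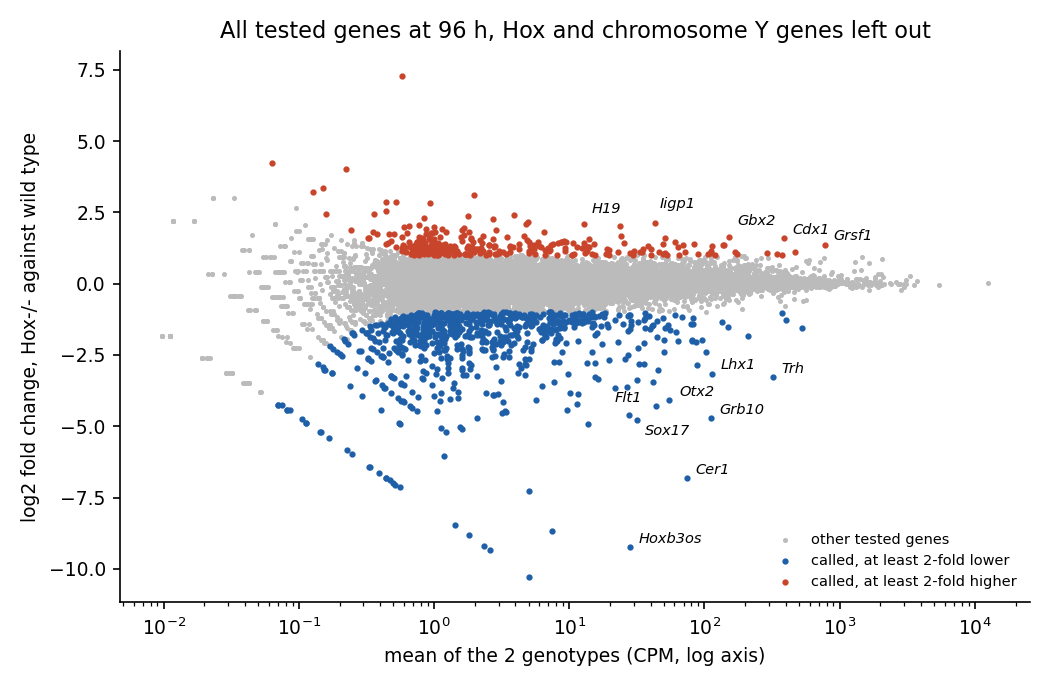
Log2 fold change of each tested gene (vertical axis, Hox-/- against wild type at 96 h) against its mean over both genotypes in CPM (horizontal log axis). Blue points are the 785 genes called at least 2-fold lower, red points the 288 called at least 2-fold higher, and grey points all other tested genes; the lower tail reaches further than the upper one.

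The libraries of the genotypes did not overlap for 1071 of the 1073 calls of at least 2-fold, against 67.7% of all tested genes. The share of all calls that were higher, 57.2%, depended on the scaling: it was 42.7% with library totals alone in place of TMM, where the median log2 fold change of all genes moved from 0.04 to -0.02. It was 47.3% in a fit on only the 4 libraries at 96 h. In each of these fits, and in every alternative run, calls of at least 2-fold were more often lower than higher. Of the genes called lower, 112 were at the floor of 3 counts or fewer in both Hox-/- libraries, and 10 of those called higher were at the floor in wild type.

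Genes of the Nodal and Activin pathway moved in both directions. Of 21 tested, 10 were lower and 8 higher, with a median log2 fold change of -0.31 against 0.04 over all tested genes. Among all tested genes 16.6% were lower and 22.2% higher, and the counts of this and later lists are to be read beside these shares. Among the secreted antagonists, Cer1 (ENSMUSG00000038192, mm10 chromosome 4, 82881751 to 82885148), which binds and blocks Nodal, BMP and Wnt ligands, was at 137 and 157 CPM in wild type and at 1.31 and 1.14 CPM in Hox-/-. Both Hox-/- libraries thus lay far below either wild-type library for Cer1, a log2 fold change of -6.83 (SE 0.106, adjusted p 2.4e-44).

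Lefty2, a feedback inhibitor of Nodal, was at 221 and 229 CPM in wild type and at 82.2 and 67.5 CPM in Hox-/- (log2 fold change -1.52, SE 0.0495, adjusted p 1.65e-30). Lefty1, its neighbour and paralog, fell less, from 647 and 655 CPM to 425 and 403 CPM (-0.60). Fst, which sequesters Activin itself, was higher, at 531 and 557 CPM in wild type and 803 and 713 CPM in Hox-/- (0.53, adjusted p 1.3e-15); limma on log2(FPKM + 1) gave 0.38 with an adjusted p of 0.068. The antagonists therefore did not move in a single direction.

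Nodal itself, the ligand, was at 117 CPM in both wild-type libraries and at 81.4 and 78.8 CPM in Hox-/- (log2 fold change -0.49). Gdf3, a ligand that pairs with Nodal, fell from 3.87 and 3.84 CPM to 0.888 and 0.936 CPM (-2.02). The coreceptors that Nodal needs and Activin does not were both lower: Tdgf1 (Cripto) was at 567 and 577 CPM in wild type and at 237 and 214 CPM in Hox-/- (-1.29, SE 0.0398), and Cfc1 (Cryptic), which overlaps Prss40 on the other strand, fell from 24.7 and 28.7 CPM to 1.12 and 0.468 CPM (-4.91, SE 0.168). The receptor gene Acvr2a was higher, at 26.7 CPM in both wild-type libraries and at 41.8 and 37.7 CPM in Hox-/- (0.63). Among the other receptors and Smads on the list, the calls were all higher and under 1.5-fold.

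Primitive streak and mesendoderm transcription factors moved in both directions. Of 16 tested, 7 were lower and 5 higher (median log2 fold change -0.18). Lhx1 (chromosome 11, 84518284 to 84525535), which is needed for head organizer activity, was at 200.04 and 213 CPM in wild type and at 22.7 and 21.9 CPM in Hox-/- (-3.15, SE 0.0535, adjusted p 1e-42). Eomes (chromosome 9, 118478212 to 118486132), a T-box factor that acts downstream of Nodal to specify endoderm, fell from 167 and 178 CPM to 34.4 and 28.9 CPM (-2.38, SE 0.0585). Gsc, a homeobox gene of the organizer and prechordal plate, fell from 55.8 and 60.02 CPM to 7.95 and 8.02 CPM (-2.81). In each of these genes the lowest wild-type library was more than 4 times the highest Hox-/- library.

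T (Brachyury), a marker of the whole streak, the tail bud and the notochord, was at 1769 and 1691 CPM in wild type and 2145 and 2113 CPM in Hox-/- (log2 fold change 0.35, adjusted p 4.4e-11). That difference passed in the count tests and missed the threshold with limma on log2(FPKM + 1), at 0.28 with an adjusted p of 0.48. Mixl1, a homeobox gene of the streak that promotes endoderm, was at 235 and 225 CPM in wild type and at 182 and 177 CPM in Hox-/- (-0.31). The summed level of the streak markers given above therefore hid a shift within it, with T higher and Eomes, Gsc, Lhx1 and Mixl1 lower.

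Definitive endoderm genes were lower as a group. Of 22 tested, 19 were lower, 16 of them by at least 2-fold, and none was higher; the list's median log2 fold change was -2.84. Foxa3, Epcam and Sox7 were not called. Sox17 (chromosome 1, 4490931 to 4497354), an HMG-box factor required for definitive endoderm, was at 56.7 and 65.3 CPM in wild type and at 2.29 and 1.87 CPM in Hox-/- (-4.79, SE 0.115, adjusted p 4.5e-36). Foxa2 (chromosome 2, 148042877 to 148046969), a forkhead factor of endoderm, node and notochord, fell from 75.8 and 85.9 CPM to 9.63 and 9.56 CPM (-3.02, SE 0.0756). Both genes were many times lower in each Hox-/- library than in either wild-type library, and neither reached the floor.

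Gata6, a zinc-finger factor of endoderm and heart, fell from 48.1 and 50.4 CPM to 3.88 and 3.81 CPM (log2 fold change -3.62). Gata4, its relative, was at 9.82 and 10.9 CPM in wild type and at 2.62 and 3.28 CPM in Hox-/- (-1.79). Cxcr4, a chemokine receptor used to sort definitive endoderm, was at 59.5 and 67.3 CPM in wild type and 10.1 and 6.62 CPM in Hox-/- (-2.83). Hhex, a homeobox factor of the anterior endoderm, and Prdm1, a transcriptional repressor of the same tissue and of germ cells, had log2 fold changes of -2.77 and -3.27. Kit, a receptor tyrosine kinase, stood at -1.97. Epcam, a surface glycoprotein of epithelia and stem cells, was at 131 and 140 CPM in wild type and 120 and 127 CPM in Hox-/- (-0.09, adjusted p 0.11). It was lower with an adjusted p of 0.0085 under library totals alone. Summed over the defining endoderm markers, Epcam included, the level was 531.5 and 589.6 CPM in wild type and 150.4 and 152.9 CPM in Hox-/-. Epcam, which is not particular to endoderm, made up 120 and 127 CPM of the Hox-/- sums. The other defining markers (Sox17, Foxa2, Cer1, Cxcr4, Gata6 and Hhex) were all called lower.

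**Figure D2:**
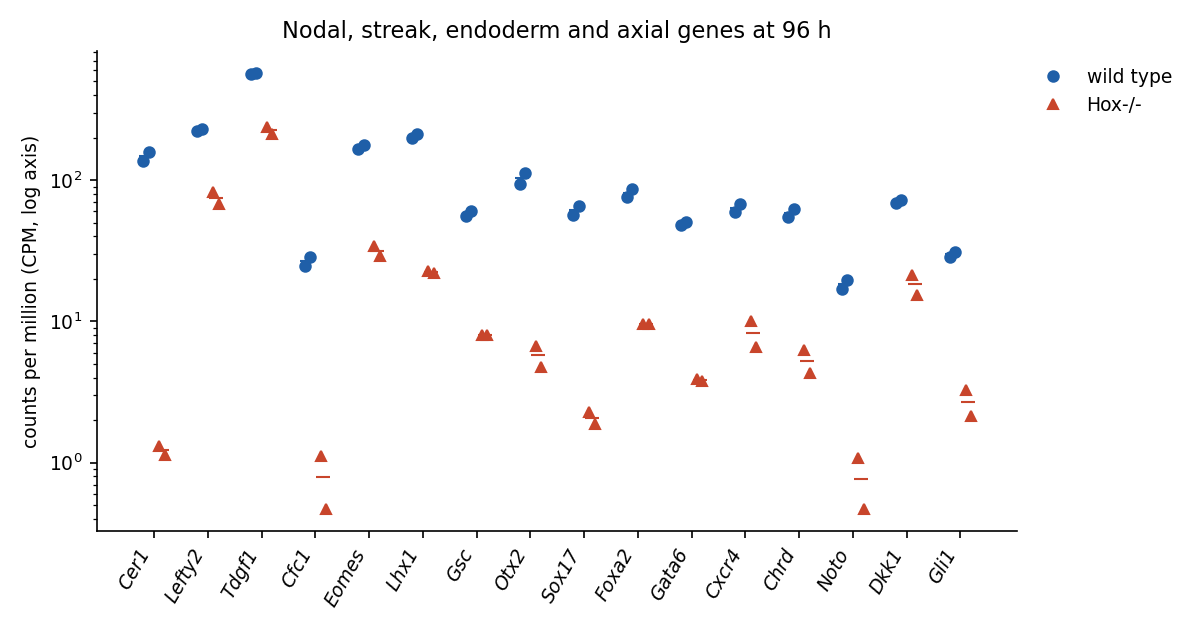
CPM in each library at 96 h (log axis) for 16 genes of Nodal signalling, the streak, endoderm and axial mesoderm; circles are the 2 wild-type libraries, triangles the 2 Hox-/- libraries and short bars the group means. Only genes that were lower in Hox-/- are shown, and genes of these lists that were higher, such as T, Fst and Acvr2a, are left out. In all 16 genes both triangles lie below both circles, with the widest gap in Cer1, from 137 and 157 CPM to 1.31 and 1.14 CPM.

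Genes of the node, notochord and prechordal plate followed the same direction. Of 19 tested, 16 were lower, 15 of them by at least 2-fold, and only T was higher (median log2 fold change -2.78, or -2.55 where genes at the floor enter at their lower bound). Several members are shared with the endoderm and streak lists. Otx2 (chromosome 14, 48657677 to 48673819), a homeobox factor of anterior tissues, was at 94.6 and 113 CPM in wild type and at 6.73 and 4.75 CPM in Hox-/- (-4.08, SE 0.0926). Noto, a homeobox gene of the node and notochord, fell from 17.0 and 19.7 CPM to 1.08 and 0.468 CPM (-4.42), and Foxj1, the regulator of motile cilia in the node, from 23.5 and 30.7 CPM to 3.79 and 3.88 CPM (-2.78).

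The secreted BMP antagonists of the organizer fell with them. Chrd (chordin) was at 54.5 and 62.9 CPM in wild type and at 6.22 and 4.28 CPM in Hox-/- (log2 fold change -3.39, SE 0.0963), and Nog (noggin) at 2.62 and 2.79 CPM against 0.608 and 0.401 CPM (-2.31). Of 22 genes of the BMP list, 10 were lower and 6 higher (median -0.41). The ligand Bmp4 went the other way, from 23.9 and 19.4 CPM to 47.8 and 49.6 CPM (1.23, SE 0.0708), while Bmp2 fell from 5.11 and 7.52 CPM to 2.06 and 2.27 CPM (-1.51). Levels of Chrd and Bmp4 thus moved in opposite directions, and neither overlapped between the genotypes.

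Hedgehog signalling was read through its ligand and its direct targets. Shh, the ligand made by notochord and node, had 45 and 72 counts in the wild-type libraries and 1 count in each Hox-/- library (adjusted p 6.6e-12), so its ratio is poorly defined. Gli1, a transcription factor whose own gene is a target of the pathway, fell from 28.6 and 31.2 CPM to 3.27 and 2.14 CPM (log2 fold change -3.36). Ptch1, the receptor and another target, fell from 77.0 and 82.1 CPM to 27.5 and 28.6 CPM (-1.45). Hhip, a target that binds the ligand, was low throughout and stood at -2.21 (adjusted p 0.00028). Over the 13 genes tested, 6 were lower and 3 higher, with a median of -0.14. Ntn1 (netrin-1), a secreted guidance protein that notochord and floor plate make, fell from 130 and 129 CPM to 31.1 and 32.8 CPM (-1.97).

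Wnt pathway genes moved in both directions. Of 28 tested, 12 were lower and 10 higher, with a median log2 fold change of -0.17. The secreted antagonists Dkk1, Sfrp1 and Frzb were lower: Dkk1 went from 68.3 and 72.7 CPM to 21.4 and 15.3 CPM (-1.85), Sfrp1 from 82.8 and 85.0 CPM to 26.8 and 26.2 CPM (-1.61) and Frzb from 51.3 and 56.3 CPM to 12.4 and 8.69 CPM (-2.26). The receptor Fzd5 fell (-1.56) and the receptor Fzd10 rose from 268 and 244 CPM to 487 and 509 CPM (1.01). Lgr5, a receptor for R-spondins, fell to near the floor, from 4.40 and 6.63 CPM to 0.234 and 0.535 CPM (-3.88). Apcdd1, a target that also inhibits the pathway, rose from 27.6 and 28.8 CPM to 72.1 and 68.6 CPM (1.37). The transcription factor Lef1 rose from 122 and 123 CPM to 179 and 188 CPM (0.64), and the target Axin2 by 0.25. Axin2 missed the threshold in both FPKM fits (adjusted p 0.52 and 0.54).

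Epithelial genes were more often lower than higher, 13 against 2 of 23 tested (median log2 fold change -0.56), and their size of change differed between genes. Cldn6, a claudin of embryonic epithelia, was at 142 and 167 CPM in wild type and at 21.4 and 19.995 CPM in Hox-/- (-2.84, SE 0.0638), and the keratin Krt7 fell from 5.15 and 5.35 CPM to 0.327 and 0.334 CPM (-3.91). The simple-epithelial keratins Krt8 and Krt18 stood at -0.72 and -0.71. Cdh1 (E-cadherin), the main adhesion protein of epithelia, was at 408 and 431 CPM in wild type and at 302 and 320 CPM in Hox-/- (-0.38). Podxl, a charged surface protein of lumen-facing membranes, fell from 151 and 155 CPM to 35.955 and 40.5 CPM (-1.96, SE 0.0504). Of 19 mesenchymal genes, 7 were higher and 4 lower (median 0.17); the receptor Pdgfrb rose from 25.9 and 23.2 CPM to 53.3 and 57.4 CPM (1.22). Among 20 collagen, laminin and other matrix genes, 5 were higher and 7 lower (median -0.10), with the basement membrane collagen Col4a1, which overlaps Col4a2 on the other strand, at 93.8 and 97.0 CPM against 41.4 and 40.7 CPM (-1.162).

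Pluripotency genes did not change as a block. Pou5f1 (Oct4), the central regulator of pluripotent cells and early streak, was at 831 and 818 CPM in wild type and 760 and 774 CPM in Hox-/- (log2 fold change -0.05, adjusted p 0.27), and its call and sign changed with the setting. Nanog was at 109 and 107 CPM against 90.2 and 91.8 CPM (-0.20, adjusted p 0.00049), a difference that missed the threshold under DESeq2 (adjusted p 0.0501) and under limma on log2(FPKM + 1) (adjusted p 0.17). Sox2, shared with neural progenitors, was higher at 51.0 and 49.5 CPM against 32.7 and 30.4 CPM (0.73).

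Of 19 genes of the naive state, 13 were lower and 3 higher (median -0.85). Esrrb, an orphan nuclear receptor, fell from 9.73 and 7.60 CPM to 1.26 and 2.14 CPM (-2.34), Dppa5a from 98.3 and 90.3 CPM to 27.7 and 29.3 CPM (-1.68), and Zfp42 (Rex1) and Klf4 had log2 fold changes of -2.24 and -0.94, whereas Prdm14 was higher (1.06). Of 21 genes of the primed state, 9 were lower and 8 higher (median -0.08). Fgf5, the ligand that marks epiblast, fell from 127 and 137 CPM to 29.9 and 33.2 CPM (-2.02, SE 0.0562), the carbonic anhydrase Car4 from 19.1 and 24.6 CPM to 1.96 and 0.736 CPM (-3.86), and the de novo methyltransferase Dnmt3b from 441 and 451 CPM to 282 and 283 CPM (-0.61). Germ cell genes were lower in 6 and higher in 2 of 12, while their defining markers summed to 5.29 and 4.57 CPM in wild type and 2.43 and 3.41 CPM in Hox-/-.

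Caudal progenitor genes were mostly higher. Of 21 tested, 15 rose and 3 fell, with a median log2 fold change of 0.67; the 3 that fell were Cyp26a1, Wnt8a and Sall4. Among the Cdx homeobox factors, which act in the tail bud and regulate Hox genes, Cdx1 (chromosome 18, 61018862 to 61036199) was at 210 and 184 CPM in wild type and at 557 and 601 CPM in Hox-/- (1.61, SE 0.0442, adjusted p 1.1e-33). Cdx2 rose less, from 248 and 243 CPM to 302 and 321 CPM (0.40), and Cdx4 rose from 2.27 and 1.51 CPM to 7.57 and 7.89 CPM (2.10). All 3 Cdx genes were higher in both Hox-/- libraries than in either wild-type library.

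Gbx2 (chromosome 1, 89927956 to 89931179), a homeobox factor of posterior epiblast and hindbrain, was at 80.4 and 72.8 CPM in wild type and 222 and 232 CPM in Hox-/- (log2 fold change 1.62, SE 0.0445). Grsf1, an RNA-binding protein of mitochondrial RNA granules, rose from 447 and 442 CPM to 1115 and 1099 CPM (1.37, SE 0.0367, adjusted p 3.5e-34) and had the smallest p among the genes that rose. Nkx1-2, a homeobox factor of neuromesodermal progenitors, went from 555 and 523 CPM to 854 and 923 CPM (0.77), the ligand Wnt3a from 69.8 and 67.2 CPM to 98.4 and 99.8 CPM (0.59), and the zinc-finger factor Sp8 from 72.0 and 69.1 CPM to 122 and 142 CPM (0.95). Wnt8a, another ligand of the streak, was lower, at 246 and 239 CPM against 186 and 178 CPM (-0.36).

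**Figure D3:**
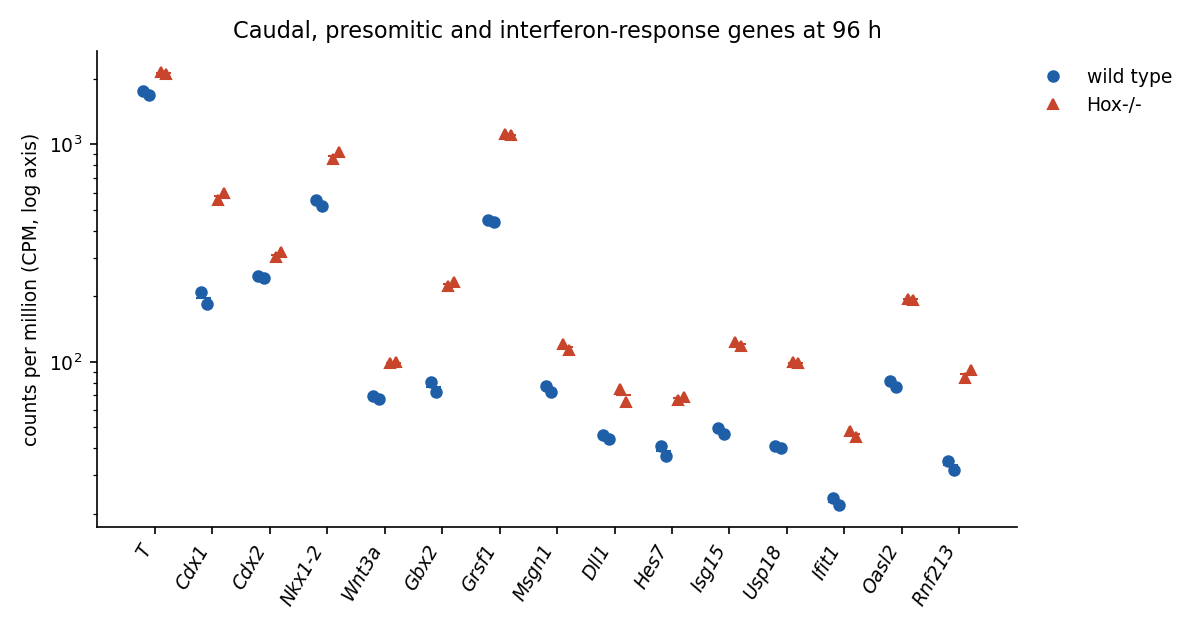
CPM in each library at 96 h (log axis) for 15 caudal, presomitic and interferon-response genes; circles are the 2 wild-type libraries, triangles the 2 Hox-/- libraries and short bars the group means. Only genes that were higher in Hox-/- are shown. Members of the caudal and presomitic lists that were lower, such as Cyp26a1, Wnt8a, Tbx6 and Meox1, are left out. Both triangles lie above both circles in all 15 genes, by a small step in T (1769 and 1691 against 2145 and 2113 CPM) and a larger one in Grsf1 (447 and 442 against 1115 and 1099 CPM).

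Presomitic and somitic genes moved in both directions. Of 26 tested, 5 were higher and 9 lower (median log2 fold change -0.29), against 22.2% higher and 16.6% lower among all tested genes. The count of those higher was thus near the background. Those that rose included the bHLH factor Msgn1 of presomitic mesoderm at 77.2 and 72.9 CPM against 121 and 114 CPM (0.70), the Notch ligand Dll1 at 46.2 and 43.9 CPM against 75.1 and 65.5 CPM (0.71), and the segmentation clock repressor Hes7 at 41.1 and 36.9 CPM against 66.9 and 68.6 CPM (0.85). Msgn1 missed the threshold in both FPKM fits (adjusted p 0.083 and 0.072). Meox1, a homeobox factor of formed somites, fell from 5.24 and 6.01 CPM to 1.17 and 0.736 CPM (-2.45). Tbx6, a T-box factor of paraxial mesoderm, was lower at -0.27 (adjusted p 0.0012), a call lost without wild-type replicate 1 (adjusted p 0.069) or without Hox-/- replicate 2 (adjusted p 0.093).

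Of 13 genes that make, degrade, carry or sense retinoic acid, the signal released by somites, 9 were lower and 2 higher (median log2 fold change -0.31). The synthesis enzyme Aldh1a2 fell from 54.1 and 55.8 CPM to 19.1 and 16.7 CPM (-1.55, SE 0.0685), the degrading enzyme Cyp26a1 from 100.2 and 105 CPM to 27.6 and 20.9 CPM (adjusted p 8.6e-31), the binding protein Crabp1 from 25.1 and 23.3 CPM to 7.34 and 5.75 CPM (-1.80), and Stra6, the cellular importer of retinol, from 15.1 and 15.2 CPM to 6.08 and 6.82 CPM (-1.19). Enzymes of synthesis and of breakdown were thus lower together. Of 22 FGF pathway genes, 8 were higher and 6 lower (median -0.02); the ligands Fgf4 and Fgf17 stood at 0.61 and 0.67, and both missed the threshold with limma on log2(FPKM + 1).

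Interferon-response genes were higher as a group. These genes are switched on by transcription factors that act below the interferon receptors and bind a short repeated element upstream of them, the interferon-stimulated response element. Of 18 tested, 17 were higher, 9 of them by at least 2-fold, and none was lower; the median log2 fold change was 0.99 and Ifit2 was not called. Isg15 (chromosome 4, 156199455 to 156200796), a ubiquitin-like modifier, rose from 49.8 and 46.7 CPM to 123 and 118 CPM (log2 fold change 1.37, SE 0.049, adjusted p 7.3e-29), and Usp18, the protease that removes it, from 40.8 and 40.0 CPM to 99.8 and 98.6 CPM (1.35). The antiviral gene Ifit1 rose from 23.7 and 21.8 CPM to 48.2 and 45.1 CPM (1.10), and the immunoproteasome subunit Psmb8 from 43.2 and 45.1 CPM to 91.7 and 80.2 CPM (1.02). Every one of these genes was already expressed in wild type.

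Promoters of 4 members of this list are printed to show the element beside the values: Isg15, Ifit1 and B2m, which encodes the light chain of MHC class I, and Rsad2, which encodes the antiviral enzyme viperin. Each line holds the 250 bases before the RefSeq start in GRCm38.p6, read 5' to 3' on the gene's strand. Capitals mark matches on either strand to GAAA, any 2 bases and another GAAA, a form of the element that was chosen after the values were seen. The windows are chr4:156200819-156201068 on the minus strand for Isg15, chr19:34640639-34640888 on the plus strand for Ifit1, chr12:26456453-26456702 on the minus strand for Rsad2 and chr2:122147437-122147686 on the plus strand for B2m.
Isg15: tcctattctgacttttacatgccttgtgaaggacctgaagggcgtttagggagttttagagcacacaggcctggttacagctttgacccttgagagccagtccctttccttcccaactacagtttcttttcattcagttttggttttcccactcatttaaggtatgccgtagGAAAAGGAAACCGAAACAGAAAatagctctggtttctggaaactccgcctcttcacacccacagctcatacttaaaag
Ifit1: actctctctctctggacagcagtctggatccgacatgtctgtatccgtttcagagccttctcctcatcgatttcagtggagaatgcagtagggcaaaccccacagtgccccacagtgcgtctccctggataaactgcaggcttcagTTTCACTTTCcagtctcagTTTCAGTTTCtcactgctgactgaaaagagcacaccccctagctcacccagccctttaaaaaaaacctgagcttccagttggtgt
Rsad2: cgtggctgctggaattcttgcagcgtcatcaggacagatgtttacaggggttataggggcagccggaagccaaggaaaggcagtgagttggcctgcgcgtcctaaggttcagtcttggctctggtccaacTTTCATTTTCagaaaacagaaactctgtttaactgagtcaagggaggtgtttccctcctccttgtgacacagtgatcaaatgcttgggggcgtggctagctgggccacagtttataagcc
B2m: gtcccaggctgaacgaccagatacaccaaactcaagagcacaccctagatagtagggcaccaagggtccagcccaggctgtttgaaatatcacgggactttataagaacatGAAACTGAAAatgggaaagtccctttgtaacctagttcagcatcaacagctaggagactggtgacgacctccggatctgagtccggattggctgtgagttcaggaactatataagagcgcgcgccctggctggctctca
Isg15 holds 3 matches that overlap in a single run, Ifit1 holds 2, and Rsad2 and B2m hold 1 each. B2m rose from 30.8 and 31.6 CPM to 43.4 and 44.3 CPM (log2 fold change 0.54), and Rsad2 from 3.64 and 2.60 CPM to 6.97 and 8.69 CPM (1.37). Over windows of 250 bases before to 50 after the start, 10 of the 14 list members called higher that had a RefSeq promoter held a match (71.4%). The same was true of 23 of 135 genes called at least 2-fold higher (17%), of 19 of 563 called at least 2-fold lower (3.37%) and of 330 of all 11433 tested genes with a promoter (2.89%). The list was drawn up from known interferon-response genes. Its 14 members here were those called higher in these data, so the share of 71.4% is not independent of them. List members such as Isg15, Ifit1 and Rsad2 are also among the 135. Promoters were found for 135 of 287 higher genes and 563 of 785 lower ones. A match describes the sequence and is not evidence of binding.

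Other motifs, each searched on both strands of the same windows, differed less between the sets. The forkhead letters TGTTTAC were in 3.37% of promoters of genes at least 2-fold lower, 3.7% of those at least 2-fold higher and 2.4% of all. The FOXH1 letters AATCCACA were in 0.71%, 0.741% and 0.507%, the bicoid-type homeodomain letters GGATTA in 7.1%, 7.41% and 5.47%, the GATA letters AGATAA in 7.64%, 10.4% and 6.09%, and the homeodomain letters TAATTA in 3.91%, 3.7% and 2.47%.

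Outside the list, several genes known to respond to interferon were among those with the smallest p. Iigp1, an interferon-inducible GTPase, was at 16.8 and 16.3 CPM in wild type and 68.0 and 71.2 CPM in Hox-/- (log2 fold change 2.13, SE 0.0664). Oasl2, an oligoadenylate synthetase-like protein, rose from 81.6 and 76.8 CPM to 194 and 193 CPM (1.34), Parp12, an antiviral ADP-ribosyltransferase, from 113 and 104 CPM to 229 and 224 CPM (1.12), and Ifitm3, a membrane protein that blocks viral entry, from 81.2 and 77.8 CPM to 216 and 178 CPM (1.37). The guanylate-binding protein Gbp9, whose annotated gene overlaps Gbp4 and Gbp8, stood at 1.28, and Rnf213, a large ubiquitin ligase, at 1.45. Ifi27 rose from 12.5 and 11.3 CPM to 37.5 and 34.8 CPM (1.66). Defining markers of blood and endothelium (Kdr, Cdh5, Etv2 and Hba-x) summed to 7.42 and 6.16 CPM in wild type and to 6.45 and 6.42 CPM in Hox-/-.

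Imprinted genes, expressed from a single parental copy, held some of the strongest changes in both directions. Of 28 tested, 14 were higher and 8 lower (median log2 fold change 0.32). Grb10 (ENSMUSG00000020176, chromosome 11, 11930508 to 12038683), an adaptor that restrains insulin and IGF receptor signalling, had the smallest p of all genes: it was at 217 and 216 CPM in wild type and 8.09 and 7.76 CPM in Hox-/- (-4.71, SE 0.0634, adjusted p 4.3e-47). Cdkn1c, an inhibitor of cyclin-dependent kinases, fell from 76.8 and 75.3 CPM to 7.25 and 5.82 CPM (-3.46, SE 0.0778), and Phlda2 from 8.80 and 8.76 CPM to 1.73 and 0.802 CPM (-2.65). The noncoding RNA H19 rose from 10.4 and 9.15 CPM to 42.2 and 33.8 CPM (2.04, SE 0.0842), while its neighbour Igf2, a growth factor, fell from 3.38 and 2.75 CPM to 1.40 and 1.34 CPM (-1.09). Meg3 and Rian, maternally expressed noncoding RNAs of a shared domain on chromosome 12, rose from 1054 and 997 CPM to 2053 and 1770 CPM and from 1484 and 1508 CPM to 2745 and 2530 CPM, at log2 fold changes of 0.95 and 0.87. Among 12 genes of IGF signalling and its binding proteins, 6 were lower and 3 higher (median -0.08); Igfbp3 rose from 541 and 542 CPM to 990 and 971 CPM (0.91) and Igfbp2 fell from 248 and 253 CPM to 125 and 137 CPM (-0.89).

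Further genes were named by size and p-value alone. Trh (chromosome 6, 92242061 to 92244650), which encodes the precursor of thyrotropin-releasing hormone, was at 533 and 637 CPM in wild type and 61.4 and 55.6 CPM in Hox-/- (log2 fold change -3.26, SE 0.0571). Flt1 (chromosome 5, 147561604 to 147726011), a VEGF receptor, fell from 80.0 and 88.4 CPM to 4.30 and 3.88 CPM (-4.30, SE 0.0875). Foxq1, a forkhead factor, fell from 50.03 and 56.9 CPM to 2.10 and 2.14 CPM (-4.60), and Upp1, the uridine phosphorylase, from 326 and 339 CPM to 97.0 and 82.6 CPM (-1.83). In all 4 of these genes every Hox-/- library was below every wild-type library.

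On the higher side, the lipoxygenase gene Alox15 went from 299 and 304 CPM to 605 and 656 CPM (log2 fold change 1.12), the fatty acid transporter Cd36 from 25.6 and 26.1 CPM to 79.1 and 73.7 CPM (1.62), and Ei24, a p53-induced gene of the endoplasmic reticulum, from 194 and 186 CPM to 382 and 391 CPM (1.08). The X-linked membrane protein gene Tmem185a and the kinase-family gene Dipk2a rose at 1.03 and 1.05, and the vasopressin receptor gene Avpr1a rose from 5.15 and 4.73 CPM to 19.1 and 22.1 CPM (2.10). Of 17 p53 targets, 13 were higher and 2 lower (median 0.23), against 22.2% higher and 16.6% lower among all tested genes. The cell cycle inhibitor Cdkn1a rose from 287 and 278 CPM to 424 and 438 CPM (0.66) and Ccng1 from 291 CPM in both wild-type libraries to 384 and 390 CPM (0.46). Of 25 replication and mitosis genes, 7 were higher and 2 lower, with a median of 0.05, close to that of all genes. The share of them called, 36%, was near the 38.8% of all tested genes.

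Neural genes were higher in 9 and lower in 5 of 21 tested (median log2 fold change 0.35, and -0.44 among those with at least 10 counts in every library), and most of those that rose were at low levels. Sox1, the earliest marker of committed neural progenitors, was at 1.155 and 0.736 CPM in wild type and 3.74 and 5.28 CPM in Hox-/- (2.28, SE 0.251). Irx3, a homeobox factor of neural plate and mesoderm, fell from 12.5 and 13.2 CPM to 3.23 and 3.21 CPM (-1.94). The defining markers Sox1, Pax6 and Olig2 summed to 1.87 and 1.09 CPM in wild type and to 4.07 and 5.95 CPM in Hox-/-. Sox1 alone carried that rise. Pax6 was at 0.711 and 0.349 CPM in wild type and 0.234 and 0.669 CPM in Hox-/-, and Olig2 had at most 2 counts in any library.

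Brain regional genes were higher in 2 and lower in 7 of 18, with 6 of the 7 at least 2-fold lower, and their median was near 0 (-0.004). Cardiac genes were higher in 1 and lower in 5 of 19, and endothelial and blood genes were higher in 2 and lower in 5 of 16; all 5 lower calls in each of these lists were at least 2-fold. Higher and lower counts were closer to each other in the remaining tissue lists, at 3 and 3 of 17 for lateral and intermediate mesoderm, 3 and 4 of 19 for visceral endoderm, 4 and 4 of 14 for regional gut genes, 2 and 2 of 11 for surface ectoderm and neural crest, and 2 and 3 of 9 for trophoblast genes. Of all tested genes, 38.8% were called, and 4.68% were at least 2-fold lower. The share called was 31.6% for cardiac, 35.3% for lateral and intermediate mesoderm, 36.8% for visceral endoderm and 36.4% for surface ectoderm and neural crest genes. It was 43.8% for endothelial and blood, 50% for brain regional, 57.1% for regional gut and 55.6% for trophoblast genes. The median of the regional gut list was -0.78, and 0.27 with genes at the floor entered at their bound. Runx1, a regulator of blood formation, was at 5.02 and 5.12 CPM against 0.561 and 0.736 CPM (log2 fold change -2.93). Metabolic lists had medians near 0: glycolysis and hypoxia genes were higher in 12 and lower in 5 of 24 with a median of 0.10, sterol synthesis genes were higher in 4 and lower in 9 of 22 with a median of -0.02. Mitochondrially encoded genes were lower in 3 of 11 (27.3%) and higher in none, with a median of -0.12. Immediate early and stress genes were higher in 3 and lower in 9 of 20, with 4 of the 9 at least 2-fold lower; Egr1, an early response factor, fell from 21.9 and 22.5 CPM to 8.70 and 7.09 CPM (-1.42), and the heat shock protein Hspb1 stood at -1.38. The single member of the 2-cell-like list that could be tested was not called.

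**Figure D4:**
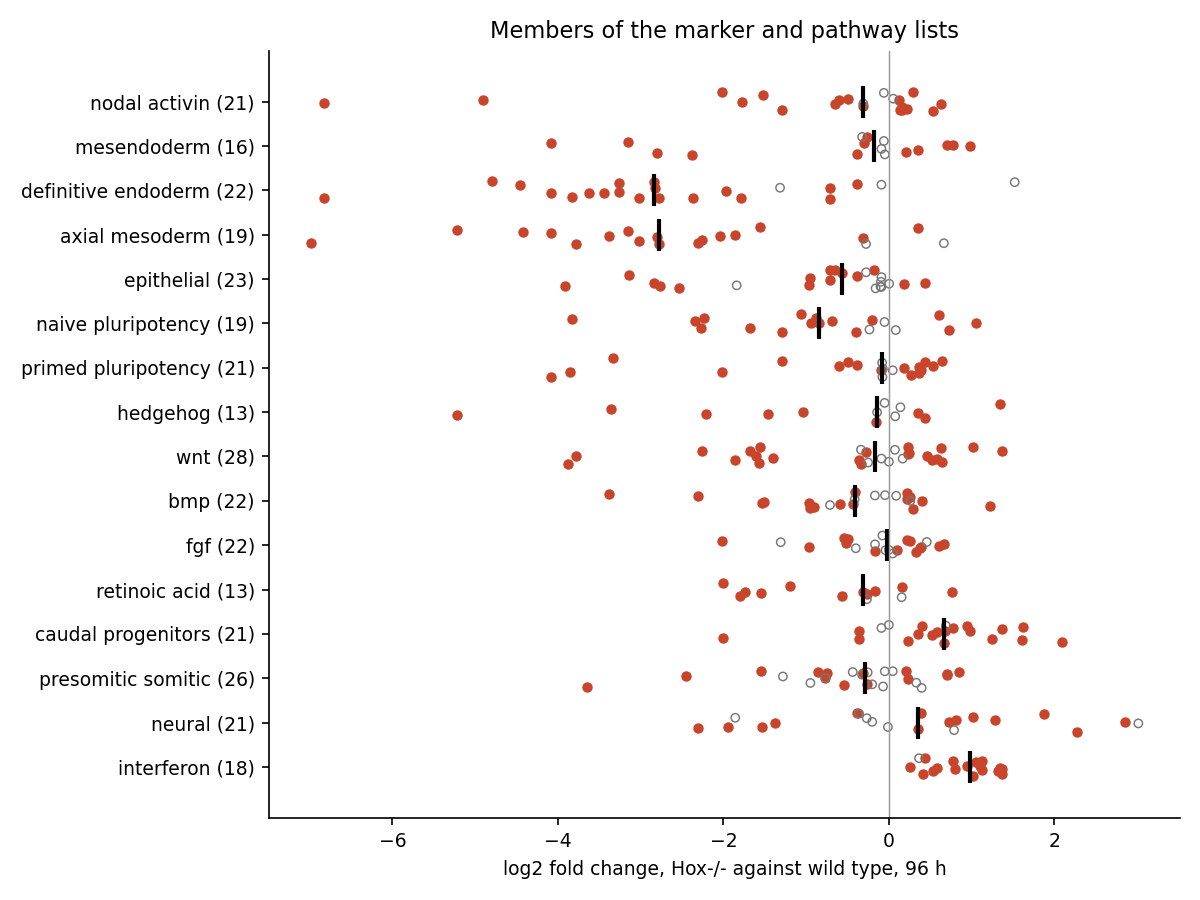
Log2 fold change at 96 h (horizontal axis, Hox-/- against wild type) of every tested member of 16 marker and pathway lists, with the number tested in brackets; filled points passed an adjusted p under 0.05, open points did not, and black bars are medians. The definitive endoderm and axial mesoderm lists sit to the left, with medians of -2.84 and -2.78, and the caudal progenitor and interferon lists to the right, with medians of 0.67 and 0.99.

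Genes that lie inside the Hox clusters without being Hox genes were mostly lower. Of 18 tested, 14 were lower and 1 was higher, against 16.6% lower and 22.2% higher among all tested genes. Several of the lower ones, such as Hoxaas2, Hoxaas3 and Haglr, overlap a Hox gene on the other strand. Whether counting used the strand is not given, so their values may include reads of that Hox gene. Of the 14, 13 were at the floor in both Hox-/- libraries, and 10 were at least 4-fold lower with such genes entered at their bound against 3 counts per library. Hoxb3os, a noncoding RNA antisense to Hoxb2 and Hoxb3 (chromosome 11, 96343072 to 96354691), had 1296 and 1419 counts in the wild-type libraries and 1 and 2 counts in the Hox-/- libraries. Hotairm1, the noncoding RNA at the anterior end of the Hoxa cluster, was at 10.1 CPM on average in wild type and had no counts in Hox-/-. Hottip, the noncoding RNA just beyond Hoxa13 (chromosome 6, 52262775 to 52267603), went the other way, with no counts in either wild-type library and 32 and 12 counts in Hox-/-, at least 9.21-fold higher against the floor of 3 counts per library. It was singled out after its values were seen.

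Protein-coding genes that flank the clusters were higher in 12 of 16 tested and lower in none (median log2 fold change 0.23), against 22.2% higher among all tested genes. Most of these shifts were small, and only 1 of the 12 reached 2-fold. Skap2, beside the Hoxa cluster, was at 69.0 and 73.7 CPM in wild type and 153 and 148 CPM in Hox-/- (1.13, SE 0.0448), and Evx1, at the posterior end of the same cluster, rose from 131 and 122 CPM to 232 and 253 CPM (0.99). Of 9 genes for Hox cofactors of the Pbx, Meis and Pknox families, 4 were lower and 2 higher, with a median of 0.02; Pknox2 rose from 46.6 and 45.5 CPM to 94.6 and 99.0 CPM (1.12).

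The same genotypes were sequenced as Activin A gastruloids at 120 h, at 9.11 to 11.6 M counts per library, and the difference between the genotype effects at the 2 times was tested as an interaction in the same fit. Among all tested genes, 50.3% were called at 120 h, 25% higher and 25.3% lower. Of the 785 genes at least 2-fold lower at 96 h, 496 (63.2%) were also called lower at 120 h and 58 (7.39%) higher. Of the 288 genes at least 2-fold higher at 96 h, 71 (24.7%) were called higher at 120 h, a share near the background, and 40 (13.9%) lower. The interaction was called for 6533 genes (38.9%), for 355 of the 785 (45.2%) and for 127 of the 288 (44.1%). In 237 of the 355 the effect was smaller or reversed at 120 h, and in 112 of the 127.

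Genes kept or lost their difference gene by gene. Grb10, Cldn6, Trh and Foxa2 were further apart at 120 h, with log2 fold changes of -6.33, -4.38, -4.44 and -4.92. The interaction was called for each of them. Foxa2, for example, was at 65.0 and 61.3 CPM in wild type and 1.98 and 1.87 CPM in Hox-/- at 120 h. Cer1 moved closer, at 108 and 107 CPM against 21.9 and 21.0 CPM (log2 fold change -2.21, interaction 4.62, SE 0.18). Cxcr4 did not pass the test at 120 h, at 120 and 117 CPM against 117 and 114 CPM (0.07, adjusted p 0.37; interaction 2.90, adjusted p 2.4e-27). Cdx1 was further apart, at 13.4 and 10.8 CPM in wild type and 137 and 146 CPM in Hox-/- (3.66; interaction 2.05, SE 0.111).

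The strongest reversals had opposite calls at the 2 times. Adam19, a membrane metalloprotease, was at 140 and 143 CPM in wild type and 36.5 and 28.8 CPM in Hox-/- at 96 h, and at 62.0 and 56.4 CPM against 144 and 143 CPM at 120 h. Cd36, higher at 96 h, was at 98.9 and 101 CPM in wild type and 12.8 and 13.8 CPM in Hox-/- at 120 h. T turned from 0.35 to -0.78, with 296 and 313 CPM against 168 and 161 CPM at 120 h (interaction -1.13, adjusted p 1.7e-21). Among epithelial genes, Epcam and Krt8 went from -0.09 and -0.72 to -3.30 and -3.24, and the interaction was called for both. Cdh1 was at 120 h at 155 and 161 CPM in wild type and 9.48 and 10.1 CPM in Hox-/- (-3.90; interaction -3.52, SE 0.0921).

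**Figure D5:**
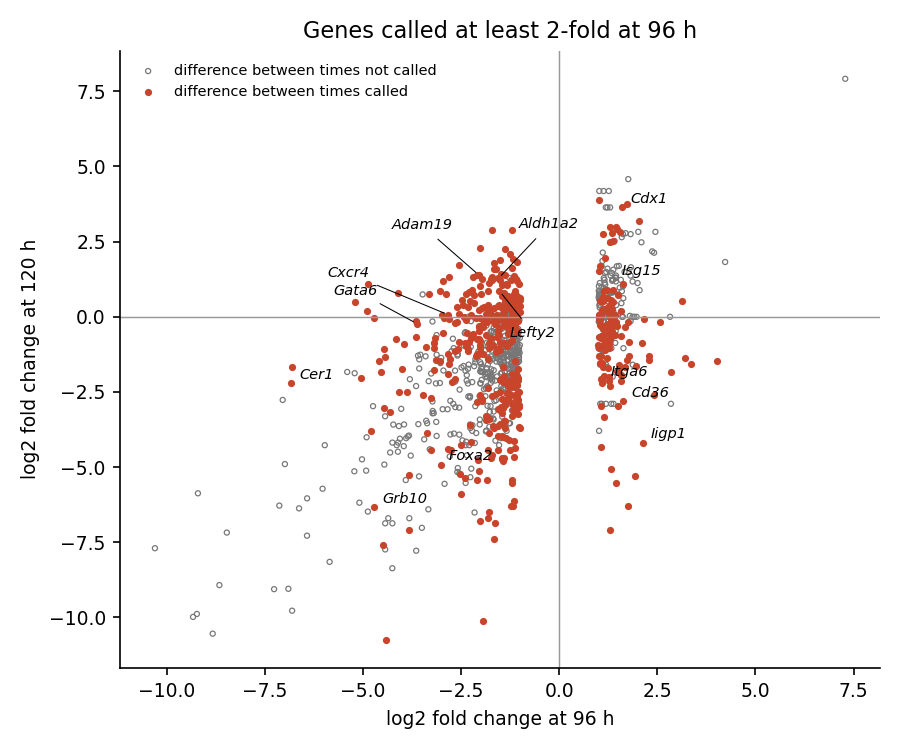
Fitted log2 fold change of Hox-/- against wild type at 120 h (vertical axis) against that at 96 h (horizontal axis) for the 1073 genes called at least 2-fold at 96 h; red points are those whose difference between the times was called, open grey points the others. Cer1, Cxcr4 and Gata6 lie nearer to 0 on the vertical axis than on the horizontal one, Grb10 and Foxa2 lie further from it, and Iigp1, Cd36 and Itga6 sit on opposite sides.

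The mES cells and the adherent endoderm cultures were tested in tables of their own. In endoderm cultures, treated with Activin A and the GSK-3 inhibitor and collected at 120 h, 598 of the 785 lower genes were tested and 385 (64.4%) were called lower, against 22.3% of all genes tested there (45.8% in either direction), while 63 (10.5%) were higher. Of the 288 higher genes, 168 were tested there and 94 (56%) were called higher, against 23.5% of all. In mES cells, before differentiation, the lower genes that could be tested were called lower in 67 of 410 (16.3%) and higher in 72 (17.6%), against 10.8% and 12.6% of all genes (23.4% in either direction). Otx2, lower at 96 h, was higher in Hox-/- mES cells (log2 fold change 1.25), and Grb10 did not pass there (adjusted p 0.99). Trh was lower in mES cells (-1.34) and in endoderm cultures (-3.04) as well.

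Some of the named genes share their position with another annotated gene, and the sources used here do not say whether counting used the strand that the library kit preserves. Values of Otx2, Sox17, Foxq1, Eomes, Chrd, Cfc1, Cdkn1c, Gbx2, Ei24, Usp18, H19, Rnf213, Gata6 and Adam19 may therefore include reads of the partner. The same holds for Acvr2a, Axin2, Bmp4, Cdkn1a, Col4a1, Col4a2, Dll1, Evx1, Fst, Fzd5, Gli1, Hes7, Hhip, Igf2, Irx3, Krt7, Krt8, Lef1, Nkx1-2, Pou5f1, Psmb8, Runx1, Sall4, Shh and Sox1, for the noncoding Meg3, Rian, Hottip, Hotairm1 and Hoxb3os, and for Gbp4, Gbp8 and Gbp9, which overlap one another.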

How the data were processed

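Libraries were made from poly(A)-selected RNA with a kit that keeps strand, as described in the protocols of the labels. Per the submitters' processing notes, cutadapt 1.16, STAR, Cufflinks 2.2.1 and the build mm10 were used; the counter is not given in the sources used here. The authors deposited whole-number counts per Ensembl gene, not normalized, and FPKM values for the same genes and libraries; 3 rows without a symbol were left unnamed.

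The 8 Activin A libraries (4 groups of 2, at 96 h and 120 h) were fitted together with edgeR 4.0.16 in R 4.3.3 (filterByExpr, TMM, quasi-likelihood test, Benjamini-Hochberg over 16831 genes). Of these, 16791 lie outside 35 tested Hox and 5 tested chromosome Y genes. The mES and endoderm count tables were fitted separately. Genes with adjusted p under 0.05 are called; log2 fold changes and standard errors are edgeR's; a library with 3 counts or fewer is at the floor, which covers counting error only. The biological coefficient of variation was 0.0263, and replicates differed by more than counting error (chi-square per degree of freedom 1.97 in wild type, 2.69 in Hox-/-). Positions are 1-based mm10, from the deposited FPKM table; overlaps and gene types are from GENCODE M21, promoters from RefSeq (GRCm38.p6), found for 11433 of 16788 tested genes with a symbol.

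The comparison and the 38 gene lists were chosen with earlier results of these data known. Named genes come from 2-fold or larger calls. Among those with no overlap between the genotypes, they are the 15 per direction with the smallest p (at least 5 CPM in the higher group) and the 5 per direction with the largest fold (at least 20 CPM). The 3 per direction with opposite calls at 120 h and the smallest interaction p were taken without the rule on overlap. List members are named too. Rnf213, Gbp9, Ntn1, Hottip and Hotairm1 were named after their values were seen; some genes are not reported here. Alternatives were other scalings and filters, DESeq2 1.42.0, limma 3.58.1 on log2(FPKM + pseudocount), a replicate block, fewer libraries, and offsets for GC content and length (mgcv 1.9.3), the last added after seeing the data. On simulated counts with 200 changed genes among 16831 at 96 h, edgeR recovered 97%, and 6.28% of its calls were false. The planted changes were 1.5- to 8-fold, split evenly between directions, in genes above a minimum level. The data themselves gave 6513 calls, 66.7% of them under 1.5-fold, so these rates do not carry over to most calls.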

Additional observations from a re-analysis of the deposited data

Results flagged for a closer look

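Among the genes called at least 2-fold at 96 h, 98 were called in the opposite direction at 120 h, and the difference between the times passed the test for all 98 of them; 58 went from lower to higher and 40 from higher to lower. The 120 h libraries are shallower than the 96 h libraries, so time and depth cannot be told apart.

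The genes that differed most clearly between the times are given as the genotype effect at 120 h minus that at 96 h on the log2 scale. Adam19 stood at 3.43 (SE 0.0859), Lefty2 at 2.38 (SE 0.0684) and Aldh1a2 at 2.82 (SE 0.084), all lower in Hox-/- at 96 h and higher at 120 h. At 120 h Lefty2 was at 244 and 237 CPM in wild type and 408 and 400 CPM in Hox-/-, and Aldh1a2 at 129 and 114 CPM against 273 CPM in both Hox-/- libraries. Cd36 stood at -4.41 (SE 0.0979), Itga6 at -3.19 (SE 0.0976) and Iigp1 at -6.31 (SE 0.318), all higher in Hox-/- at 96 h and lower at 120 h. Itga6, the integrin subunit that binds laminin, was at 69.9 and 74.9 CPM in wild type and 139 and 160 CPM in Hox-/- at 96 h, and at 90.2 and 85.4 CPM against 19.3 and 18.4 CPM at 120 h. Iigp1 was at 7.57 and 6.81 CPM in wild type at 120 h and at 0.172 and 0.561 CPM in Hox-/-. Those Hox-/- levels are near the floor of 0.259 and 0.281 CPM in these libraries, so the size of its reversal is poorly defined.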

How the results depend on the processing

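Against 6513 calls, 1073 of at least 2-fold, 57.2% of calls higher and 6533 interaction calls, DESeq2 gave 3616 calls. limma on log2(FPKM + 1) gave 3051 calls, 251 of at least 2-fold and 31.6% higher, and the same fit with 0.1 added and an FPKM minimum of 1 gave 2757, 506 and 30.8%, with 4239 interaction calls. The share higher was 42.7% with library totals alone, 44.1% with no filter, 47.3% with only the 4 libraries at 96 h and 49.4% with a minimum of 10 counts in every library, which left 374 calls of at least 2-fold (75 higher, 299 lower). Leaving out each library in turn gave 4996 to 5376 calls, 970 to 1078 of at least 2-fold, 56.0% to 58.2% higher and 5824 to 6315 interaction calls; a lone library is then assumed to vary like the other groups. Calls of at least 2-fold were more often lower under every alternative run. The summed Hox FPKM in Hox-/- was 17.1% of wild type, against 16.04% in CPM. With the replicate number as a block there were 6558 calls, 1087 of at least 2-fold, 57.2% higher and 6549 interaction calls; same-numbered libraries at 96 h did not deviate together (correlation 0.0133), so the numbers do not pair them. Of 2090 values of 141 named genes under alternatives, 2062 kept their side of the threshold and their direction, 20 lost the call, 7 gained it and Pou5f1 changed sign (0.0199 with offsets for GC content and length). The causes were not tested, other than those the construction of an alternative shows. Of the list medians, those of 17 of 38 lists changed sign under at least 1 alternative. At 15 to 25.8 M counts the floor was 0.116 to 0.201 CPM, and lower levels are not resolved.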

Other observations

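Processed pseudogenes, the reverse-transcribed copies of expressed genes, were nearly all higher where called: 442 rose and 6 fell of 1384 tested at 96 h (median log2 fold change 0.40), against 3065 and 2670 of 13756 protein-coding genes (median 0.01). They took 0.818% and 0.853% of counts in wild type and 0.934% and 1.01% in Hox-/-, and 0.539% to 0.58% in the 4 shallower libraries at 120 h. Reads of a pseudogene and of its parent gene are hard to separate, and how the counting treated them is not given in the sources used here. The counts were 316 higher and 34 lower of 672 in endoderm cultures, 51 and 8 of 528 in mES cells, and 58 and 32 of 1384 at 120 h. The split by gene type was chosen after seeing the data. Among protein-coding genes alone, calls of at least 2-fold were 189 higher and 711 lower.

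By chromosome, the median log2 fold change ran from -0.003 on chromosome 11 to 0.10 on the X chromosome, where 29.5% of 603 tested genes were higher and 11.9% lower.

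Wild-type Chiron gastruloids at 96 h, which the comparison does not use, give a further level for some genes, in CPM of a separate table. Of the 18 interferon-response list members tested, 17 were below all 4 Activin A libraries in both Chiron libraries, and Ifit2 was above them (7.69 and 6.45 CPM). Isg15 was at 1.22 and 1.80 CPM, Usp18 at 1.36 and 1.67 CPM and Oasl2 at 1.36 and 2.05 CPM, while B2m was at 27.9 and 28.7 CPM, close to wild-type Activin A gastruloids. Rnf213, which is not on the list, was at 207 and 167 CPM, above both genotypes. Cdx1 was at 369 and 425 CPM and Gbx2 at 140 and 150 CPM, between wild-type and Hox-/- Activin A gastruloids. Trh was at 95.9 and 134 CPM and Otx2 at 1.17 and 2.26 CPM. Grb10 was at 294 and 270 CPM, above both.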
